A study of Mus musculus with 30 samples.

Results

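Peptide hormones of the gut and the pancreatic islet were followed in medullary thymic epithelial cells (mTECs) with and without the transcriptional regulator Aire and after 3 treatments or deletions. The genes were 10 listed by symbol: Nts, Pyy, Ppy, Sst, Gcg, Gip, Cck, Ghrl, Gast and Sct. All 10 were found among the 55011 genes of the mTEChi count table and among the 35999 gene symbols of the B6 Aire-GFP+ table, and all 10 passed the filter on low counts in both, which left 18418 and 17923 genes tested.

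The study concerned Z-DNA, a left-handed helix that alternating purine and pyrimidine bases can adopt, and how Aire selects its target promoters. Of its 30 mouse RNA-seq libraries, 21 were analysed here, and the NOD and F1 libraries were not used here. All came from thymi of female C57BL/6J mice aged 4 to 6 weeks, depleted of CD45+ cells with magnetic beads and sorted by flow cytometry. Aire-GFP+ mTECs came from Aire-KO (2 libraries) and WT mice (3 libraries) with no treatment. The mTEChi groups, of 2 libraries each, were Aire-KO and WT mice injected intraperitoneally with spermidine, a polyamine, or with PBS, WT mice injected with topotecan, a topoisomerase I inhibitor, or with its vehicle DMSO, and untreated Foxn1-cre,Nfe2l2 fl/fl (Nfe2l2 flox) and Foxn1-cre,Nfe2l2+/+ (Nfe2l2 wt) mice. Foxn1-cre acts throughout the thymic epithelium and was carried by both Nfe2l2 groups. The labels state neither dose nor duration of any injection, and nothing in the labels ties replicates to separate animals, so p-values measure the spread between libraries, which may be technical.

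Enteroendocrine cells of the gut and endocrine cells of the islet each make a small set of peptide hormones from prohormones that are cut in secretory granules. Mature mTECs transcribe many such tissue-restricted genes, largely under Aire, and display their products to developing T cells, which is part of central tolerance. In bulk libraries such as these, fewer cells with a transcript and less transcript per cell cannot be told apart.

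Depth was 6.58 to 12.6 M estimated counts on named genes in the Aire-GFP+ libraries and 2.03 to 5.72 M counts in the mTEChi libraries. The summed level of 14 mTEC markers was at least 16156 CPM (counts scaled to the effective library size) in every library, so the sorted cells carried the genes their label names. The gene-level Aire count did not show the knockout: Aire averaged 1641 ± 188 CPM in Aire-KO and 1653 ± 44.1 CPM in WT Aire-GFP+ cells (SD, n = 2 and 3), and 4616 ± 650 CPM in Aire-KO and 1630 ± 12.5 CPM in WT PBS mTEChi (SD, n = 2 each). Nfe2l2 likewise averaged 96.0 ± 13.3 CPM in Nfe2l2 flox and 91.1 ± 0.487 CPM in Nfe2l2 wt mTEChi, so neither label could be checked by a whole-gene count. Markers of other thymic cells were present in every group: thymocyte markers, 9 of 9 detected, summed to 23.4 to 40.3 CPM in Aire-KO and 56.0 to 84.4 CPM in WT Aire-GFP+ cells.

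The stretches just before the start sites of 4 of the genes are shown because they carry the contrasts below: Nts had the longest alternating purine-pyrimidine run, Pyy and Ppy lie next to each other, and Sct did not follow the rest. Each is 250 bases on the gene's strand, 5′ to 3′, ending at the base before the RefSeq start (GRCm38.p6), and capitals mark the longest run in which purines and pyrimidines alternate. They lie at chr10:102490419-102490668 (Nts), chr11:102107833-102108082 (Pyy), chr11:102101320-102101569 (Ppy) and chr7:141279134-141279383 (Sct), all on the minus strand. The RefSeq start of Nts lies 68 bp from the GENCODE M21 start, while those of the other 3 coincide with it.
Nts: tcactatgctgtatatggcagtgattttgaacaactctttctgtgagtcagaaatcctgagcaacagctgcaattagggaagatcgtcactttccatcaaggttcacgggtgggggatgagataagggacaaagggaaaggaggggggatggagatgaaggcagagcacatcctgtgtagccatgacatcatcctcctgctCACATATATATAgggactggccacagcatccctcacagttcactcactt
Pyy: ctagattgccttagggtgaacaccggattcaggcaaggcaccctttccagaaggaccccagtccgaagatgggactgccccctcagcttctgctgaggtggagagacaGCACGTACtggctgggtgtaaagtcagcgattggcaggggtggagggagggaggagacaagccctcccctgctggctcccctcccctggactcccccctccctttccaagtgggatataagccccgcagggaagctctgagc
Ppy: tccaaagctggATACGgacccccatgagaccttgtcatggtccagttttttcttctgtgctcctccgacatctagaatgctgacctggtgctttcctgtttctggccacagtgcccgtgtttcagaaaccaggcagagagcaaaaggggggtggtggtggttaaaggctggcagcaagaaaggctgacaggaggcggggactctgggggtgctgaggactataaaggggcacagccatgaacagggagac
Sct: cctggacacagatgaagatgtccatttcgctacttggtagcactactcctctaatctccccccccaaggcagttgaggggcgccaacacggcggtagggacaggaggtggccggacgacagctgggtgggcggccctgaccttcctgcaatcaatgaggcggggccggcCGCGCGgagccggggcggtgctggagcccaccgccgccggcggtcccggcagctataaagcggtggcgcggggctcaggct

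The alternating run of Nts was 12 bases long and lay 38 to 49 bases before the start; 8.12% of 32851 RefSeq windows of this length held one as long. That of Pyy had 8 bases, a length reached in 43.6% of windows, and those of Ppy and Sct had 5 and 6 bases. No CA repeat (CACACACACA on either strand, in 1.43% of windows) was found before any of the 10 genes, nor the antioxidant response element core TGACNNNGC, which 10.2% of windows hold. The Sct window stood out in base composition, with 68% G or C and 22 CpG dinucleotides, against 1 CpG in Gip, 2 in Nts and 9 in Cck, and 14.8% of windows had as many. It also held the only CG repeat (CGCGCG, in 9.17% of windows) among the 10. A TATA box (TATAAA on either strand, in 12.4% of windows) was found before Ppy, Gcg, Gast and Sct, with its first base 31 bases before the start in Ppy and 28 in Gast and Sct. The E-box CANNTG, present in 66.2% of windows, was found before every gene but Ppy.

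With Aire intact, transcripts of all 10 hormones were detected in Aire-GFP+ WT cells and in 11 of the 12 mTEChi libraries; topotecan library 1 lacked Cck and Gast counts. On a per-length scale the order in Aire-GFP+ WT cells, as mean TPM (the length-scaled abundance of kallisto), was Pyy (198), Sct (166), Ppy (166), Nts (115), Gip (78.8), Cck (64.3), Gast (49.3), Gcg (40.0), Sst (24.7) and Ghrl (16.5). In mTEChi the median CPM per kilobase of exon over the 12 libraries ran from 72.9 for Pyy and 71.5 for Ppy through 47.1 for Sct, 38.7 for Nts and 30.8 for Gip down to 5.23 for Sst and 2.54 for Ghrl. Every gene's range overlapped that of the next gene in both orders, so only distant places differ beyond the spread between libraries. Peptide YY and pancreatic polypeptide, close relatives of neuropeptide Y, thus stood near the top in both cell preparations, and ghrelin, the appetite hormone of the stomach, stood last in both.

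**Figure D1:**
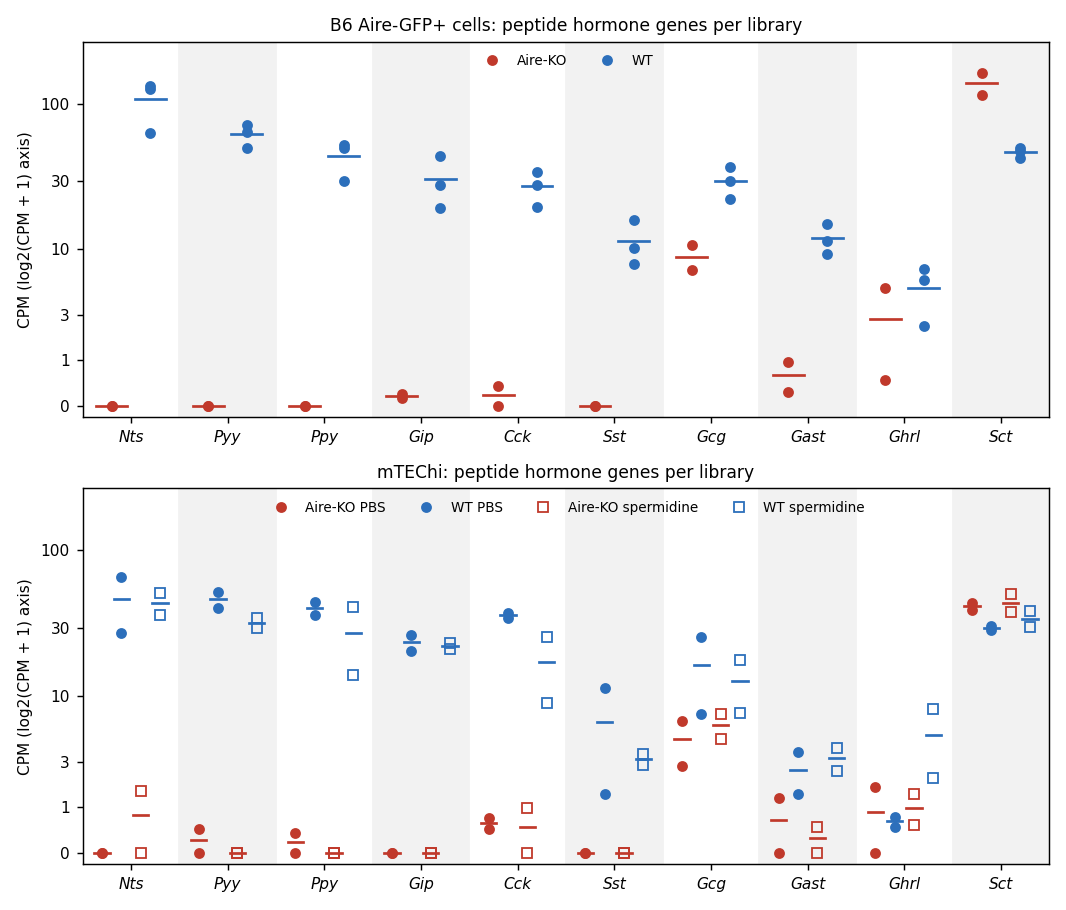
CPM of each gene on a log2(CPM + 1) axis in Aire-KO and WT libraries of B6 Aire-GFP+ cells (top) and of mTEChi given PBS or spermidine (bottom); points are libraries and bars are group means. Nts, Pyy, Ppy, Gip, Cck and Sst lie at or near 0 in Aire-KO libraries of both preparations, Gcg keeps a low level, and Sct lies at 115 and 160 CPM in Aire-KO Aire-GFP+ libraries, above the 43.0 to 50.2 CPM of WT.

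Loss of Aire in Aire-GFP+ cells took most of the hormone transcripts away. Of the 10 genes, 8 fell, Sct rose and Ghrl did not pass the test (edgeR quasi-likelihood test, Benjamini-Hochberg adjusted p below 0.05); of all genes tested, 41.3% were called, 22.3% as lower and 19% as higher. The summed level of the 9 genes other than Sct was 8.09 and 16.8 CPM in the Aire-KO libraries, against 294, 410 and 286 CPM in the WT libraries. With Sct included, the sum was 123 and 177 CPM in Aire-KO, against 337, 460 and 334 CPM in WT. The median log2 fold change of the 10 genes was -7.41 as fitted, or -6.74 with the 4 genes at 0 set to their bounds, beside -0.12 over all genes tested.

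Neurotensin (Nts), a peptide of distal small-intestinal endocrine cells and neurons, had no count in either Aire-KO library and 125, 132 and 63.0 CPM in the WT libraries. It was at least 675-fold lower in Aire-KO, taking 3 counts over the 2 knockout libraries as the floor (adjusted p = 8.32e-05, edgeR). Pyy, whose peptide is released from the lower gut after meals and slows transit, had no count in Aire-KO and 49.9, 72.1 and 64.3 CPM in WT. Its fall was at least 393-fold (adjusted p = 2.35e-05, edgeR). Ppy, the product of islet PP cells, likewise had 0 in Aire-KO against 29.9, 50.4 and 52.7 CPM in WT, at least 280-fold lower (adjusted p = 7.6e-05, edgeR). The 3 genes, among the most abundant hormone transcripts in WT cells, were not detectable in Aire-KO cells at this depth.

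Somatostatin (Sst), the inhibitory peptide of islet delta and gut D cells, had no count in Aire-KO and 10.1, 16.1 and 7.75 CPM in WT. This was at least 71.6-fold lower (adjusted p = 4.22e-04, edgeR). Gip, an incretin of the upper gut, had 0.119 and 0.189 CPM in Aire-KO, against 19.6, 44.7 and 28.3 CPM in WT. With 3 counts left in the knockout libraries the WT level was 206 times that of Aire-KO (95% counting interval 70.2 to 1000; adjusted p = 1.01e-04, edgeR). Cck, whose peptide empties the gallbladder and drives pancreatic enzyme release, also kept 3 counts: 0.357 and 0 CPM in Aire-KO against 19.8, 34.7 and 28.1 CPM in WT, a ratio of 181 (61.7 to 879; adjusted p = 1.59e-04, edgeR). These intervals cover counting error only. No Aire-KO library came near the lowest WT library for any of these genes.

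Gcg, which encodes glucagon and the glucagon-like peptides, was the gene among the falling 8 that kept the largest part of its level. It had 6.90 and 10.6 CPM in Aire-KO, against 22.5, 37.3 and 30.1 CPM in WT, without overlap. The log2 fold change was -1.77 (SE 0.30, adjusted p = 0.00247, edgeR). Gastrin (Gast), the acid-stimulating hormone of gastric G cells, had 0.238 and 0.946 CPM in Aire-KO, against 11.5, 15.2 and 9.17 CPM in WT, a log2 fold change of -4.25 (SE 0.57, adjusted p = 9.11e-04, edgeR).

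Ghrelin (Ghrl) was uneven between the knockout libraries. It had 0.476 and 5.02 CPM in Aire-KO, against 5.81, 7.05 and 2.36 CPM in WT, and the groups overlapped (log2 -0.86, SE 0.85, adjusted p = 0.453, edgeR). Without Aire-KO replicate 2 the difference passed the test, with a log2 fold change of -3.36 (adjusted p = 0.0432), and without Aire-KO replicate 1 it was 0.00. On the opposite strand, Ghrl overlaps Gm44033, which lies within it, and the antisense gene Gm26982, which meets it only at its edge. In libraries without strand, reads from the shared bases cannot be told apart.

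Secretin (Sct), the duodenal hormone that drives bicarbonate secretion by the pancreas, moved the other way. It had 115 and 160 CPM in Aire-KO, against 43.0, 50.2 and 47.8 CPM in WT, with no overlap. The log2 fold change was 1.55 (SE 0.16, adjusted p = 3.17e-04, edgeR), and scaled by library totals alone it was 1.15. The estimated counts fell on the same isoforms in both groups: Sct-202 held 59.2% of them in Aire-KO and 62.6% in WT, and Sct-204 held 28.6% in Aire-KO and 25.8% in WT.

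Marker levels moved with Aire in these libraries as well. The 14 mTEC markers summed to 67140 to 70890 CPM in Aire-KO and 31263 to 31450 CPM in WT, with 6 called as higher, led in level by the MHC class II genes H2-Ab1 and H2-Aa, and 2 (Krt5 and Cldn4) as lower. Of 5 cortical epithelial markers, all detected, 2 rose (Ccl25 and Ly75) and 2 fell (Psmb11 and Ctsl); their sum of 2458 to 2460 CPM in Aire-KO and 766 to 927 CPM in WT was mostly Ccl25, which averaged 2258 CPM in Aire-KO and 585 CPM in WT. Psmb11, the defining thymoproteasome subunit of cortical cells, averaged 8.23 CPM in Aire-KO and 22.2 CPM in WT.

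Fibroblast markers (7 of 7 detected) also went both ways, with a median log2 fold change of -1.20 over the 6 tested: Dcn and Lum rose, and the collagen genes Col1a1 and Col3a1 fell. Dcn averaged 273 CPM in Aire-KO and 45.0 CPM in WT and made up most of the sum, which was 264 to 344 CPM in Aire-KO and 87.6 to 136 CPM in WT, while Col1a1 averaged 0.331 CPM in Aire-KO and 32.0 CPM in WT. Of 7 neuroendocrine-like mTEC markers tested, 4 fell (Chga, Chgb, Car8 and Stxbp5l) and 2 rose (Insm1 and Snap25), with a median of -1.42, although their sum was 134 to 145 CPM in Aire-KO and 117 to 140 CPM in WT. Enterohepatocyte-like mTEC markers summed to 1229 to 1388 CPM in Aire-KO and 1992 to 2241 CPM in WT, with 6 of 8 called as lower. Scaled by library totals, 5 mTEC markers rose and 5 fell, 1 cortical marker rose and 2 fell, and 2 fibroblast markers rose and 4 fell. The part of cell composition in the hormone changes was not tested.

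In mTEChi, where the same loss of Aire was measured in mice given PBS or spermidine, the pattern was the same for the leading hormones. With PBS, 5 of the 10 genes fell (Nts, Pyy, Ppy, Gip and Cck) and none rose, beside 10.3% of all genes tested called, 5.08% as lower and 5.21% as higher. With spermidine the same 5 fell, beside 9.11% called, 4.34% as lower and 4.77% as higher. The 2 comparisons share no library, and the mean of the 2 effects called 6, adding Sst, beside 22.8% called, 12.5% as lower and 10.3% as higher.

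Nts had 0 and 0 CPM in Aire-KO and 65.9 and 27.7 CPM in WT with PBS, at least 81.1-fold lower (adjusted p = 0.00270, edgeR). With spermidine it had 0 and 1.55 CPM in Aire-KO and 51.7 and 36.4 CPM in WT, a ratio of 59.7 from 3 knockout counts (20.2 to 291; adjusted p = 0.00899, edgeR). Pyy had 0.434 and 0 CPM in Aire-KO and 52.8 and 40.8 CPM in WT with PBS, where 1 knockout count gave a ratio of 248 (44.0 to 9823; adjusted p = 6.65e-04, edgeR). In all 4 knockout libraries together, Nts thus left 3 counts and Pyy 1.

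With spermidine Pyy was at 0 in both Aire-KO libraries and at 34.7 and 29.8 CPM in WT, at least 42.9-fold lower (adjusted p = 0.00198, edgeR). Ppy had 0 and 0.345 CPM in Aire-KO and 45.2 and 36.9 CPM in WT with PBS (ratio 216, 38.4 to 8584; adjusted p = 0.00510, edgeR), and 0 and 0 CPM in Aire-KO and 41.4 and 14.0 CPM in WT with spermidine (at least 36.9-fold lower, adjusted p = 0.0123). The neighbouring pair was therefore nearly silent in every knockout library. The Ppy call with PBS was lost without either knockout library, with adjusted p = 0.0653 without replicate 1 and 0.0504 without replicate 2.

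Gip had no count in any of the 4 Aire-KO libraries, against 26.6 and 20.9 CPM in WT with PBS and 23.4 and 21.5 CPM in WT with spermidine. It was at least 41.1-fold lower with PBS (adjusted p = 1.41e-04) and at least 29.8-fold lower with spermidine (adjusted p = 2.69e-04, both edgeR). Cck had 0.434 and 0.691 CPM in Aire-KO and 37.9 and 34.9 CPM in WT with PBS (ratio 63.4, 21.4 to 311; adjusted p = 0.00224, edgeR). Both genes stayed below 1 CPM in every knockout library. With spermidine Cck had 0.971 and 0 CPM in Aire-KO and 25.8 and 8.76 CPM in WT (ratio 36.3, 9.78 to 304; adjusted p = 0.0142, edgeR).

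The calls with spermidine rested on few libraries. Without WT spermidine replicate 1 the count was 3, with Cck (adjusted p = 0.114) and Ppy (0.0716) lost, and without either Aire-KO spermidine replicate it was 2, with Cck, Nts and Ppy lost. In limma-voom only Gip passed in each of the 2 comparisons, and 4 genes passed for their mean. The direction of these genes did not change in any of these fits.

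Sst was at 0 in all 4 Aire-KO libraries, against 11.3 and 1.46 CPM in WT with PBS and 2.83 and 3.51 CPM in WT with spermidine. In the edgeR fit it passed for the mean of both, where it was at least 14.6-fold lower (adjusted p = 0.0253), and not within either treatment, and 6 of the 8 fits that left out a library lost that call, at adjusted p between 0.0502 and 0.102. With PBS it was called by DESeq2 (adjusted p = 0.00991) and by edgeR without the filter on low counts (5.57e-05), which also called it with spermidine (0.00917). Without the filter the SE of Sst with PBS was smaller, at 1.51 beside 2.59. The lower WT PBS library lay nearer to 0 than to the other WT PBS library. When the 8 libraries of these 4 groups were fitted alone, only 7 hormones passed the filter on low counts. Sst was not among them, so its call for the mean was lost there and rests on the fit shared with the other mTEChi groups.

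Gcg, Gast and Ghrl did not pass in mTEChi in the edgeR fit with filtered counts. Gcg had 6.51 and 2.76 CPM in Aire-KO and 25.9 and 7.28 CPM in WT with PBS, and 7.29 and 4.66 CPM in Aire-KO and 18.1 and 7.45 CPM in WT with spermidine, a mean log2 fold change of -1.50 (SE 0.61, adjusted p = 0.0903, edgeR). Within each treatment the knockout libraries lay below the WT libraries, though by a small margin from the lower WT library. Such separation is common with 2 libraries a group: 32.8% of all genes did not overlap between spermidine and PBS in WT. The share for the Aire comparisons was not computed. Gast summed to 4 counts over the 4 Aire-KO libraries and 29 over the 4 WT libraries (log2 -2.77, SE 0.98, adjusted p = 0.0548, edgeR). Ghrl had 8 counts in Aire-KO and 27 in WT, and its libraries overlapped (log2 -0.95, adjusted p = 0.560). For the mean of both treatments, DESeq2 called Gcg (adjusted p = 0.0263) and Gast (0.0371) as lower. So did edgeR without the filter (4.65e-05 for Gcg and 0.0139 for Gast). There the log2 of Gcg stayed at -1.51, while its SE was 0.32 beside 0.61 with the filter. Gast also passed when scaled by library totals (0.0406). Gcg also passed without WT PBS replicate 2 (0.0497) and in the 8 libraries of the 4 groups fitted alone (0.0334), and Gast without Aire-KO PBS replicate 1 (0.0303).

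Sct again had the higher values in Aire-KO, but the difference did not pass the test. It had 39.5 and 44.2 CPM in Aire-KO and 28.8 and 30.6 CPM in WT with PBS, without overlap (log2 0.50, SE 0.23, adjusted p = 0.199, edgeR). As for Gcg, the share of all genes without overlap was not computed for this comparison. With spermidine it had 50.5 and 38.3 CPM in Aire-KO and 38.9 and 30.2 CPM in WT, with overlap (log2 0.36, adjusted p = 0.388). The mean of both was 0.43 (SE 0.16, adjusted p = 0.0763), and 0.25 when scaled by library totals. Whether the Sct effect differs between Aire-GFP+ cells and mTEChi was not tested, since the 2 tables were counted by different methods.

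**Figure D2:**
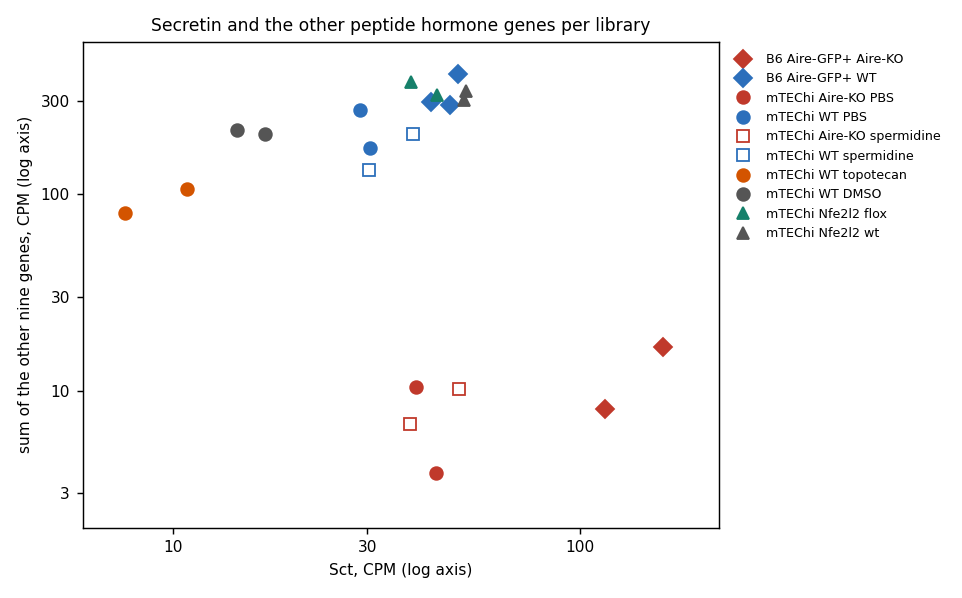
Sct (x axis, CPM, log scale) against the summed CPM of the other 9 genes (y axis, log scale) in the 21 libraries, coloured by group. The 6 Aire-KO libraries lie between 3.80 and 16.8 CPM on the y axis at Sct levels of 38.3 CPM or more, and the libraries with intact Aire lie at 80.8 CPM or more.

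In every knockout library Sct stayed within or above the range of the WT libraries while the sum of the other 9 genes lay far below it. That sum was 10.4 and 3.80 CPM in Aire-KO and 270 and 172 CPM in WT with PBS, and 10.2 and 6.73 CPM in Aire-KO and 203 and 133 CPM in WT with spermidine. With Sct included, the sum with PBS was 49.9 and 48.0 CPM in Aire-KO and 299 and 202 CPM in WT. With spermidine it was 60.7 and 45.0 CPM in Aire-KO and 241 and 163 CPM in WT. Of the 10 genes, 4 to 6 had any count in an Aire-KO library, and Sct held most of the counts there: 397 over the 4 mTEChi libraries, beside 47 for Gcg, 8 for Ghrl, 5 for Cck and 4 for Gast. The enterohepatocyte-like mTEC markers, 8 of 8 detected, were also lower there, with sums of 450 to 665 CPM in Aire-KO and 1365 to 1908 CPM in WT with PBS.

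The neuroendocrine-like mTEC markers summed to 122 to 143 CPM in Aire-KO and 193 to 213 CPM in WT with PBS, and to 98.6 to 124 CPM in Aire-KO and 198 to 301 CPM in WT with spermidine, without overlap. The mTEC markers moved the other way, with sums of 46896 to 47518 CPM in Aire-KO and 24698 to 24995 CPM in WT with PBS. With spermidine the sums were 45608 to 46633 CPM in Aire-KO and 26041 to 26042 CPM in WT. In each comparison 10 of 14 were called as higher and 1 as lower. Aire, the targeted gene, was among those called as higher in both. Scaled by library totals, 7 with PBS and 5 with spermidine were called as higher. The part of these markers in the hormone values was not tested.

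Spermidine against PBS gave no call among the hormones in either genotype. In WT mTEChi 0 of 18418 genes passed the edgeR test (0%, with 709 at an unadjusted p under 0.05). In Aire-KO mTEChi 0 of the 10 passed, beside 0.00543% of all genes, and 0 passed for the difference between the 2 spermidine effects (0% of all genes, 619 at an unadjusted p under 0.05). DESeq2 and limma-voom called 0 of the 10 in these 3 comparisons. Thymocyte markers summed to 184 to 198 CPM with spermidine and 92.0 to 92.9 CPM with PBS in Aire-KO mTEChi. In WT they summed to 156 to 173 CPM with spermidine and 99.9 to 152 CPM with PBS. Erythroid markers summed to 26.7 to 55.9 CPM with spermidine and 111 to 298 CPM with PBS in WT. In Aire-KO they summed to 62.1 to 184 CPM with spermidine and 91.1 to 110 CPM with PBS. The part of these markers in the hormone values was not tested.

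Ghrl gave the largest fitted difference in WT: 2.12 and 7.89 CPM with spermidine and 0.728 and 0.485 CPM with PBS, without overlap (log2 2.92, SE 1.30, unadjusted p = 0.041, adjusted p = 0.999, edgeR). The PBS libraries together held 3 Ghrl counts. Pyy (34.7 and 29.8 CPM with spermidine, 52.8 and 40.8 CPM with PBS) and Cck (25.8 and 8.76 CPM with spermidine, 37.9 and 34.9 CPM with PBS) lay lower without overlap, at log2 -0.54 (SE 0.53) and -1.06 (SE 0.67), both with adjusted p = 0.999; of all genes, 32.8% did not overlap. Sct and Gip had log2 values of 0.23 (SE 0.24) and -0.08 (SE 0.41). In Aire-KO mTEChi, Sct averaged 44.4 ± 8.63 CPM with spermidine and 41.9 ± 3.35 CPM with PBS (SD, n = 2 each). The genes called as lower in the knockout stayed near 0 with spermidine. Nts had 3 counts, Cck 2, and Pyy, Ppy and Gip 0, against 0, 3, 1, 1 and 0 with PBS.

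**Figure D3:**
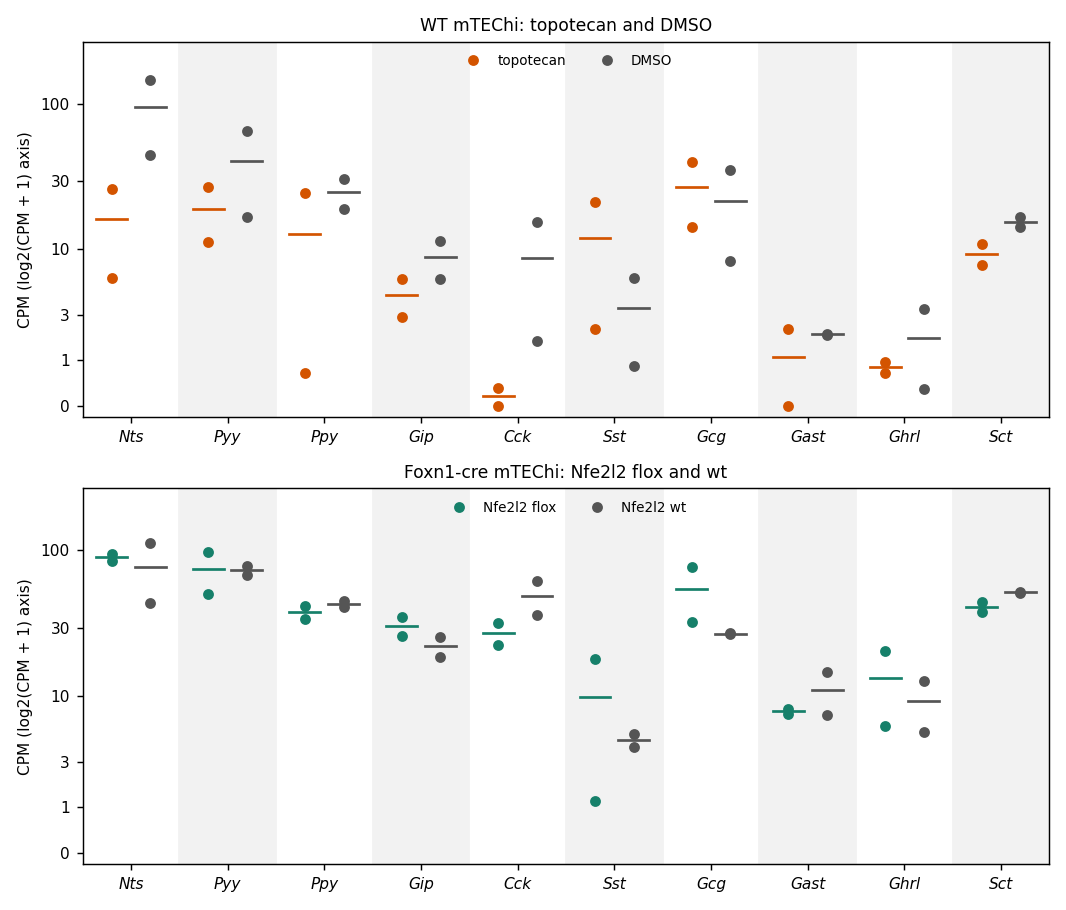
CPM of each gene on a log2(CPM + 1) axis in WT mTEChi given topotecan or DMSO (top) and in Nfe2l2 flox and Nfe2l2 wt mTEChi (bottom); points are libraries and bars are group means. Cck, Nts and Sct lie lower in both topotecan libraries than in both DMSO libraries, and most genes overlap between the Nfe2l2 groups.

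Topotecan gave no call among the 10 genes, beside 0.652% of all genes called (0.456% lower and 0.195% higher), and 2566 genes had an unadjusted p under 0.05. Cck, Nts and Sct, the 3 hormones with an unadjusted p under 0.05, were also the only ones without overlap between the groups, beside 39.7% of all genes, and all lay lower with topotecan. Cck had 0 and 0.319 CPM with topotecan and 15.5 and 1.68 CPM with DMSO. That is 1 count against 60 (ratio 52.4, 9.05 to 2103; log2 -5.42, SE 1.31, adjusted p = 0.0765, edgeR). DESeq2 called it (adjusted p = 0.0195), as did edgeR without DMSO replicate 2 (log2 -6.30, adjusted p = 0.00936).

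Nts had 26.5 and 6.05 CPM with topotecan and 45.0 and 144 CPM with DMSO (log2 -2.54, SE 0.68, adjusted p = 0.112, edgeR). The DMSO libraries differed more than 3-fold from each other, as did the topotecan libraries. Sct had 7.62 and 10.8 CPM with topotecan and 14.3 and 16.8 CPM with DMSO (log2 -0.75, SE 0.26, adjusted p = 0.203, edgeR), the lowest levels of this gene in any group.

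The other hormones overlapped. Ppy had 0.662 and 24.8 CPM with topotecan and 31.0 and 19.3 CPM with DMSO (log2 -0.97, adjusted p = 0.632), and it passed without topotecan replicate 2 (log2 -5.17, adjusted p = 0.0223, edgeR). Pyy had 11.3 and 27.1 CPM with topotecan and 65.7 and 16.8 CPM with DMSO (log2 -1.10, adjusted p = 0.388). Gip had 5.96 and 2.87 CPM with topotecan and 11.5 and 5.89 CPM with DMSO (log2 -0.97, adjusted p = 0.382). Topotecan library 1 was the one with little Ppy, no Cck and no Gast.

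Sst and Gcg, the 2 genes with a fitted value above 0, were as uneven. Sst had 21.5 and 2.23 CPM with topotecan and 6.02 and 0.841 CPM with DMSO (log2 1.78, adjusted p = 0.578), and Gcg had 14.2 and 40.5 CPM with topotecan and 35.8 and 8.13 CPM with DMSO (log2 0.32, adjusted p = 0.891). Gast and Ghrl stayed below 4 CPM in all 4 libraries. The sum over the 9 genes other than Sct was 80.8 and 107 CPM with topotecan and 213 and 202 CPM with DMSO. Nts alone gave 26.5 and 6.05 CPM of the topotecan sums and 45.0 and 144 CPM of the DMSO sums. The close DMSO sums also hide opposite differences, as Pyy had 65.7 and 16.8 CPM there. The median log2 fold change of the 10 was -0.97, beside 0.01 over all genes.

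Aire itself fell with topotecan, to 730 ± 126 CPM against 1340 ± 227 CPM with DMSO (SD, n = 2 each; log2 -0.88, SE 0.14, adjusted p = 0.0125, edgeR), a call that was lost without DMSO replicate 1 (adjusted p = 0.0784) and when the 4 libraries were fitted alone (0.288). Top1, the target of the drug, averaged 110 CPM with topotecan and 90.1 CPM with DMSO (adjusted p = 0.473). Thymocyte markers summed to 338 to 361 CPM with topotecan and 245 to 283 CPM with DMSO, fibroblast markers to 165 to 1375 CPM with topotecan and 369 to 731 CPM with DMSO, and neuroendocrine-like mTEC markers to 95.6 to 187 CPM with topotecan and 182 to 566 CPM with DMSO. Their part in the hormone values was not tested.

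Deletion of Nfe2l2, which encodes the stress-response factor Nrf2, gave no call among the 10 genes and none among all 18418 (0%, with 973 at an unadjusted p under 0.05 in edgeR, 28 called in DESeq2, none of them a hormone). Gcg (77.5 and 33.1 CPM in flox, 27.6 and 27.0 CPM in wt; log2 1.01, SE 0.67) and Gip (26.3 and 35.4 CPM in flox, 18.7 and 25.8 CPM in wt; log2 0.47, SE 0.40) lay higher without overlap. Cck (32.2 and 22.8 CPM in flox, 62.3 and 36.5 CPM in wt; log2 -0.85, SE 0.63) and Sct (44.6 and 38.5 CPM in flox, 51.9 and 52.3 CPM in wt; log2 -0.33, SE 0.22) lay lower without overlap. All 4 had an adjusted p of 1 in edgeR, the sign was not shared among them, and 33.9% of all genes did not overlap.

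Nts had 85.1 and 94.6 CPM in flox and 44.2 and 111 CPM in wt, and Pyy had 51.2 and 97.6 CPM in flox and 78.8 and 68.6 CPM in wt. Ppy had 34.6 and 42.4 CPM in flox and 45.7 and 41.6 CPM in wt. The 3 genes overlapped, with log2 values of 0.21 (SE 0.60), 0.02 (SE 0.49) and -0.18 (SE 0.71). Sst was the most uneven, with 1.19 and 18.2 CPM in flox and 4.04 and 5.12 CPM in wt. The Nfe2l2 libraries held the highest hormone sums in mTEChi: over the 9 genes other than Sct, 321 and 373 CPM in flox and 301 and 336 CPM in wt. Both groups were untreated Foxn1-cre mice and the other mTEChi groups were injected, so the sources of this difference cannot be told apart.

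**Figure D4:**
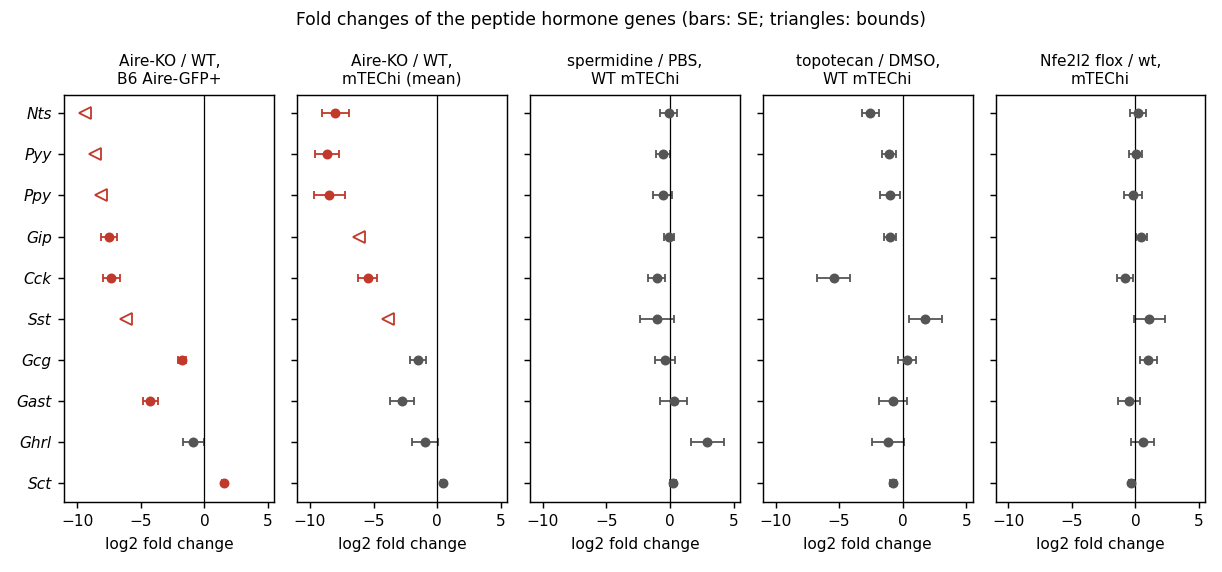
Fitted log2 fold change with its standard error for each gene in 5 comparisons, the mTEChi Aire comparison being the mean over PBS and spermidine; open triangles mark the bound for genes at 0 in all Aire-KO libraries, and red marks an adjusted p below 0.05. Calls are limited to the 2 Aire comparisons, with Sct at 1.55 in Aire-GFP+ cells as the one on the positive side.

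The genes differed in how closely replicate libraries agreed. Over the 6 mTEChi groups with intact Aire, the higher replicate was a median 1.16 times the lower for Sct (1.01 to 1.42) and 1.36 times for Gip (1.09 to 2.08). For Sst this ratio was 7.46 (1.24 to 15.4), for Ghrl 2.96 (1.44 to 11.7), for Gcg 2.63 (1.02 to 4.41) and for Nts 2.45 (1.11 to 4.38). Ppy was even in most groups (median 1.41) and reached 37.5 with topotecan. Sst and Gcg ranged over 0.841 to 21.5 and 7.28 to 77.5 CPM across the 12 libraries, with medians of 3.77 and 26.4 CPM.

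Across the 12 mTEChi libraries with intact Aire, some of the genes varied together. The correlation of log2(CPM + 1) was 0.89 for Cck and Sct, 0.88 for Gip and Cck, 0.86 for Gip and Sct, and 0.79 for the neighbours Pyy and Ppy. These values describe 12 libraries that share treatments and groups, and the 4 lowest values of both Sct and Gip are those with topotecan and DMSO. By the same measure the tested genes most like each hormone were Creld2, Serhl and Sesn2 for Gip (0.97 each), Cib3 (0.97), Nat8f1 (0.95) and Vdac1 (0.94) for Ppy, Rhcg (0.93), Pla1a (0.92) and Tapbpl (0.92) for Pyy, and Czib (0.89), Mat1a (0.88) and Tufm (0.88) for Nts. Sct was closest to Chchd2 (0.98), Lad1 (0.97) and Ovol1 (0.97), Cck to Adipoq (0.96), Retnla (0.96) and Gdap1l1 (0.95), Gcg to Necab2 (0.94), and Sst to Ina (0.87).

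Of 20 listed receptors for these hormones, 15 were tested in Aire-GFP+ cells, where 8 fell and none rose, beside 22.3% of all genes lower and 19% higher. Gcgr, the glucagon receptor, averaged 0.498 ± 0.367 CPM in Aire-KO and 14.5 ± 4.05 CPM in WT (SD, n = 2 and 3; log2 -4.78, SE 0.55, adjusted p = 4.38e-04, edgeR). The neurotensin receptor Ntsr1 had no count in Aire-KO and 6.34 ± 2.06 CPM in WT, at least 40.1-fold lower (adjusted p = 8.78e-04, edgeR), and the cholecystokinin receptors Cckar and Cckbr fell as well. In mTEChi 1 of 14 fell with PBS (Sstr5) and 1 with spermidine (Ntsr1), shares near the 5.08% and 4.34% of all genes, and 7 fell for the mean of both, led by Ntsr1 and Sstr5, beside 12.5% of all genes. The Sstr5 call with PBS was lost in each fit that left out a library, at adjusted p between 0.0755 and 0.210, and that of Ntsr1 with spermidine likewise, at 0.0572 to 0.139.

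Of 12 tested genes for prohormone processing and secretory granules, 7 fell in Aire-GFP+ cells and 1, Scg5, rose, beside 22.3% of all genes lower and 19% higher. The granins Scg2 and Chga fell, Chga at log2 -1.42 (SE 0.18) from a WT level of 56.3 ± 7.71 CPM (SD, n = 3), as did Pam, the enzyme that amidates the C terminus of peptides such as PYY, gastrin and secretin, to 44.9 ± 5.74 CPM in Aire-KO against 89.9 ± 8.24 CPM in WT (adjusted p = 0.00152, edgeR). The list median was -0.98. In mTEChi only Chgb fell with PBS, a call lost in each fit that left out a library (adjusted p from 0.0793 to 0.235), none was called with spermidine, and Chgb, Pcsk2 and Scg5 fell for the mean of both, the last 2 lost in 5 or more of 8 such fits. Scg5 thus had opposite signs in the 2 preparations, and its rise was not called when scaled by library totals. The mTEChi calls were 1 of 12 with PBS, 0 with spermidine and 3 for the mean. Of all genes, 5.08%, 4.34% and 12.5% were called as lower in these comparisons.

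Chgb, another granin, was the one gene of this list called with topotecan: it had no count there and 29.9 ± 36.0 CPM with DMSO (SD, n = 2 each), at least 61.4-fold lower (adjusted p = 0.0406, edgeR). The call was lost without DMSO replicate 1 (adjusted p = 0.154), topotecan replicate 1 (0.107) or topotecan replicate 2 (0.114).

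Transcription factors of endocrine cells were split. In Aire-GFP+ cells 4 of 15 tested fell and 3 rose, shares near those of all genes there (22.3% lower and 19% higher). Neurog3, which specifies endocrine progenitors in gut and pancreas, had no count in Aire-KO and 8.96 ± 1.63 CPM in WT, at least 56.7-fold lower, and Lmx1a fell at least 25.7-fold. Insm1, a zinc-finger factor of endocrine differentiation, rose to 81.6 ± 9.36 CPM in Aire-KO against 17.0 ± 1.93 CPM in WT (SD, n = 2 and 3; log2 2.27, SE 0.16, adjusted p = 6.8e-05, edgeR). Scaled by library totals, 2 rose and 6 fell.

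In mTEChi none of the 15 was called with PBS and Insm1 alone with spermidine, a call lost in each fit that left out a library (adjusted p from 0.0977 to 0.243). Of all genes tested, 10.3% were called with PBS and 9.11% with spermidine. For the mean of both, 2 of the 15 rose and 2 fell, shares near the 10.3% of all genes higher and 12.5% lower. Among them, Insm1 (log2 1.17) rose, and Rfx6 (-1.28) and Neurog3 (at least 10.5-fold lower) fell. Each of these 3 calls was lost in 4 or more of the 8 fits that left out a library. Rfx6, a factor needed for islet and enteroendocrine cells, also fell with topotecan, to 1.14 ± 0.261 CPM against 16.1 ± 2.95 CPM with DMSO (SD, n = 2 each; log2 -3.78, SE 0.56, adjusted p = 0.0107, edgeR). That call held in every fit that left out a library (0.0247 to 0.0492) but not in the 4 libraries alone (0.207).

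Of 18 other peptides of gut, islet and enteric nerves tested in Aire-GFP+ cells, 13 fell and none rose, beside 22.3% of all genes lower and 19% higher. Galanin (Gal) had 0.415 ± 0.0822 CPM in Aire-KO and 102 ± 30.7 CPM in WT (SD, n = 2 and 3; log2 -7.88, SE 0.44), Penk, the enkephalin precursor, had 1.67 ± 0.178 CPM in Aire-KO and 32.1 ± 1.20 CPM in WT, and Vip was at least 169-fold lower. In mTEChi 3 of 16 fell with PBS (Gal, Npy and Cartpt, each lost in 2 or 3 of the 4 fits that left out a library), 6 fell with spermidine, and 8 fell for the mean of both, beside 5.08%, 4.34% and 12.5% of all genes called as lower. Adm2 alone rose there, to 45.1 ± 6.82 CPM in Aire-KO against 21.4 ± 4.81 CPM in WT (SD, n = 4 each; log2 1.09, SE 0.23), but it fell in Aire-GFP+ cells at log2 -0.82 (SE 0.19).

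Genes flanking Pyy and Ppy were read for comparison. Those beside the other hormone loci are not given here, except for a neighbour of Sct below. Ppy (chr11:102099930-102101319) and Pyy (chr11:102106676-102107832) lie 5356 bp apart on the minus strand of GRCm38, flanked by Mpp2, 11414 bp from Ppy, and Nags, 37680 bp from Pyy. In Aire-GFP+ cells Mpp2 had 0.308 ± 0.0994 CPM in Aire-KO and 2.46 ± 1.10 CPM in WT (adjusted p = 0.0224), and Nags had 0.119 ± 0.168 CPM in Aire-KO and 1.61 ± 0.251 CPM in WT (adjusted p = 0.0317, edgeR, SD, n = 2 and 3). All 4 genes of this stretch were thus lower without Aire, beside 22.3% of all genes tested, and the outer pair had WT levels near 2 CPM. The Mpp2 call was lost without either knockout library.

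Cdhr5, a brush-border cadherin gene 1543 bp from Sct and chosen after its values were seen, fell to 28.6 ± 0.604 CPM in Aire-KO against 83.1 ± 13.2 CPM in WT (SD, n = 2 and 3; log2 -1.54, SE 0.17, adjusted p = 4.15e-04, edgeR), the opposite direction to Sct in the same libraries. In mTEChi its mean log2 fold change was -0.47 (SE 0.17, adjusted p = 0.0579).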

How the data were processed

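Polyadenylated RNA of sorted cells was amplified by Smart-seq2 and made into Nextera XT libraries, per the labels' protocols, without molecular identifiers or strand. For Aire-GFP+ cells the authors deposited kallisto estimated counts and TPM per transcript; 116816 of 118489 transcripts matched GENCODE M21 names, were summed to symbols and rounded, and the rest held 0.541 to 0.578% of the counts. For mTEChi the deposited values are raw featureCounts counts per gene. The submitters' processing notes also name STAR, TopHat2 2.1.1, SAMtools 1.3.1 and mm10.

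Counts were filtered with filterByExpr, scaled by TMM and tested with edgeR 4.0.16 (quasi-likelihood, Benjamini-Hochberg, threshold 0.05) in R 4.3.3. The 16 mTEChi libraries shared 1 group-means fit and the 5 Aire-GFP+ libraries another, with biological coefficients of variation of 0.269 and 0.272. CPM are TMM-scaled. Counting intervals are exact at 95%, and bounds use 3 counts over the group. Fits were tested on simulated data with the same spread for every gene. Genes as uneven between replicates as Sst were not covered by that test. DESeq2 1.42.0, limma-voom 3.58.1, other scalings, no filter, a replicate block and leaving out libraries were alternatives. Promoter sequences are from RefSeq.

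All hormones were named, plus up to 4 genes per list and comparison by smallest p, the 3 most correlated genes per hormone averaging 5 CPM or more, and the genes flanking Pyy and Ppy. Members and lists were chosen with earlier results of these data known. Of the list genes that the rule gives, 1 is not reported here.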

Additional observations from a re-analysis of the deposited data

How the results depend on the processing

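In Aire-GFP+ cells 9 genes were called under each alternative that kept all libraries, and 9 to 10 when 1 library was left out. In mTEChi the Aire comparison gave 4 to 5 calls with PBS, 2 to 5 with spermidine and 5 to 7 for their mean when 1 library was left out. With limma-voom it gave 1 with PBS, 1 with spermidine and 4 for the mean, and the cause was not tested. Of all 18418 genes, limma-voom called 1068, 836 and 2753 there, beside 1896, 1678 and 4195 in the fit as reported. DESeq2 gave 6 with PBS (adding Sst), 5 with spermidine and 8 for the mean (adding Gast and Gcg). EdgeR without a filter on low counts gave 7 with PBS (adding Gcg and Sst), 6 with spermidine (adding Sst) and 8 for the mean (adding Gast and Gcg). Of all genes, DESeq2 called 2203, 1950 and 4199 of 18418 in these comparisons, and the unfiltered fit 2714, 2517 and 4617 of 46903. Without a filter on low counts 3 hormones (Cck, Nts and Pyy) were called with topotecan, beside 1006 of all 46903 genes. DESeq2 called 1 (Cck), beside 429 of 18418 genes, where the fit as reported called 120. Leaving out 1 library gave 0 to 1 hormones. The unfiltered fit also called 111 genes for spermidine in WT and 134 for Nfe2l2 flox, where the fit as reported called 0. Spermidine against PBS in either genotype, the difference between them and Nfe2l2 flox against wt gave 0 hormone calls under every alternative run. No hormone changed sign under an alternative while called.

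Scaling by library totals moved the median log2 fold change of all genes from -0.12 to -0.51 in Aire-GFP+ cells and from -0.05 to -0.23 for the mean in mTEChi, and split the calls in Aire-GFP+ cells into 1591 higher and 6250 lower, beside 3410 and 4000. With the replicate number as a block the counts were 9 in Aire-GFP+ cells, 5 with PBS, 5 with spermidine, 6 for the mean and 0 elsewhere; same-numbered libraries correlated at -0.01 to 0.06 across groups, so the numbers were not taken as pairs, and the block changed no hormone call. It moved Chgb with PBS (adjusted p = 0.055) and with topotecan (0.0552) and Sstr5 with PBS (0.0578) past the threshold. Low counts limit Sst, Gast and Ghrl in mTEChi most. Only 7 hormones were tested when the PBS and spermidine libraries, or the topotecan and DMSO libraries, were fitted alone.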
